A study of Mus musculus with 2 samples.

Results

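The Notch genes described here were the receptors Notch1, Notch2, Notch3 and Notch4, the ligands Dll1, Dll4, Jag1 and Jag2, and the targets Hes1 and Hey1. These 10 genes were found by their symbols among the 24354 genes measured in differentiating mouse embryonic stem cells (ESCs). Poly(A) RNA was sequenced from 1 library of control cells (Diff–CONT) and 1 library of cells with an inducible knockout of Ino80 (Diff–iKO), the gene of the ATPase subunit of a chromatin remodeling complex. Per the study's methods, Diff–iKO ESCs came from Ino80 2f/2f;ROSA26-CreER blastocysts, whose Cre recombinase is made from the broadly active ROSA26 locus and acts after 4-hydroxytamoxifen (4-OHTM), whereas Diff–CONT ESCs came from Ino80 2f/2f blastocysts without Cre, although their genotype label reads WT. Both were grown as embryoid bodies in medium with 8% serum replacement, moved to gelatin at day 4, and then cultured for 7 days in medium with 15% serum, BMP4 and 0.5 µM 4-OHTM, so the control cells had received the drug as well. Whether each line was a single clone was not given in the sources used here.

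Notch signaling passes between touching cells. A ligand of the Delta-like or Jagged family on one cell binds a Notch receptor on its neighbour, the receptor is cut first by an ADAM protease and then by γ-secretase, and its freed intracellular part joins the DNA-binding protein Rbpj and a Mastermind coactivator at target genes. The best known targets encode Hes and Hey proteins, basic helix-loop-helix repressors. In the embryo the pathway is known for setting arterial identity, building the smooth muscle coat of vessels, timing the formation of somites and keeping neural progenitors from becoming neurons, and it is also needed in heart development.

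Levels were given as FPKM, in which the fragments of a gene are scaled by transcript length and library size, so they can be compared between genes within a library. The spacing of low FPKM values allowed the number of fragments behind each value to be worked out, 27640601 for Diff–CONT and 21501809 for Diff–iKO over the 23021 genes with a known transcript length, as estimates. Log2 ratios are those of FPKM in Diff–iKO over Diff–CONT. Each 95% interval below is an exact (Clopper-Pearson) interval from these fragments and covers counting error only. With 1 library per group there was no replicate and no test, and every difference is a difference between these 2 libraries. A gene was counted as higher or lower when its fold change was at least 2 and its FPKM was at least 2 in 1 or both libraries. The study's methods give these limits but not in which libraries the FPKM limit had to be met. Ino80 itself (chromosome 2, 119373042 to 119477687) had 8.90 FPKM in Diff–CONT and 10.3 FPKM in Diff–iKO, with a log2 ratio of 0.21 (95% counting interval 0.11 to 0.31). This value is summed over the whole gene and does not show the deleted exons on their own, and since it was not lower, directions below refer to the library labelled Diff–iKO.

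Of the 10 Notch genes, all reached an FPKM of 2 in at least 1 library. Notch4 and Jag1 passed the cut-off as higher in the library labelled Diff–iKO, and Dll4 passed it as lower. The other 7 genes differed by less than 2-fold. Among all 12376 genes that reached the FPKM minimum, 6.73% were higher and 8.39% were lower by the same rule, so counts of 2 and 1 among 10 genes are too small to set these genes apart. Counting error was small for most of them. The interval of the log2 ratio excluded 0 for 9 of the 10, 4 above and 5 below, beside 79.6% of the 7849 genes with 1 RefSeq transcript that reached the FPKM minimum. The median log2 ratio of the 10 genes was −0.04, close to the −0.01 of the 13145 genes that averaged 1 FPKM or more, while their median size without sign was 0.64 beside 0.37.

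**Figure D1:**
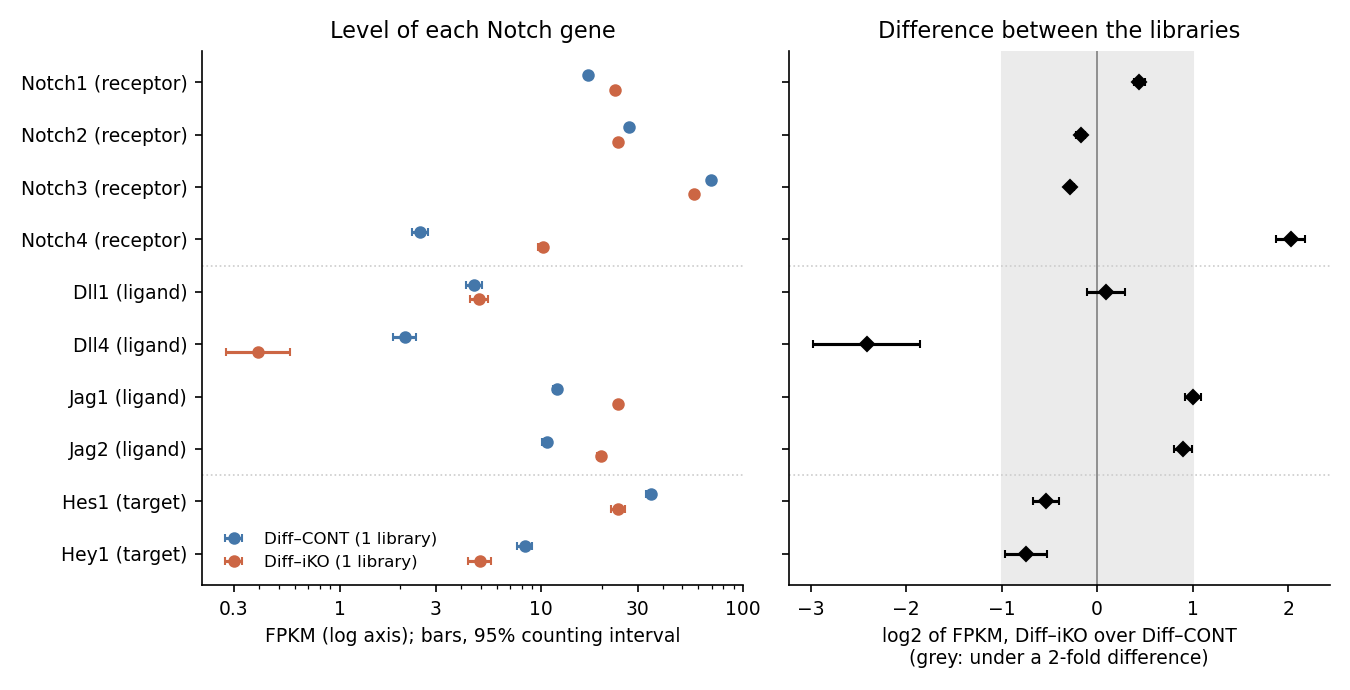
FPKM of the 10 Notch genes in each library on a log axis (left, bars are 95% counting intervals) and the log2 ratio of Diff–iKO over Diff–CONT with its interval (right, the grey band marks differences under 2-fold). Notch4 at 2.03 and Dll4 at −2.41 lie far outside the band, Jag1 lies at its edge at 1.00, and the other 7 genes lie inside it.

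The promoters of these 3 genes are shown because they are the Notch genes past the cut-off. Each run is the RefSeq sequence of GRCm38.p6 from 250 bases before to 50 bases after the start given by RefSeq, which can differ from the GENCODE gene ends printed below, as it does for Notch4 and Jag1, written 5′ to 3′ on the gene's own strand, with CpG dinucleotides (the sites of DNA methylation in mammals) in capitals. They are Notch4 at chr17:34564045-34564344 on the plus strand, Dll4 at chr2:119325534-119325833 on the plus strand and Jag1 at chr2:137116471-137116770 on the minus strand.
Notch4: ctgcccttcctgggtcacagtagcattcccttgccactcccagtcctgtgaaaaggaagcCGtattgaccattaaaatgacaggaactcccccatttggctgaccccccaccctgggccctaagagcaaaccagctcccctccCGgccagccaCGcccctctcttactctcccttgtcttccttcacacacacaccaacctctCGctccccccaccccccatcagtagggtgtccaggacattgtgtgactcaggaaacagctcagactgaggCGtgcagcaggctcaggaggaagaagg
Dll4: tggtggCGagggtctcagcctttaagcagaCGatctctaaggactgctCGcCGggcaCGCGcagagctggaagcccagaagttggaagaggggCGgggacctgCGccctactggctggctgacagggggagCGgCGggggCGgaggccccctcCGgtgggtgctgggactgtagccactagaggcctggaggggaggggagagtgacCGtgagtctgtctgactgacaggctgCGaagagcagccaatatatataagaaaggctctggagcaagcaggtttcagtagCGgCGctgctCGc
Jag1: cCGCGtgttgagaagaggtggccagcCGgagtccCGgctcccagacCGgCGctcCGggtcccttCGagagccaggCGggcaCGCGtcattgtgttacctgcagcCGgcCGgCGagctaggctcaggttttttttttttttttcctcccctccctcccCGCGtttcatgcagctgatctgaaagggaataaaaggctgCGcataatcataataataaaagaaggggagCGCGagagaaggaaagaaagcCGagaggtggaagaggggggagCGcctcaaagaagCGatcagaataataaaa
The Notch4 window held 5 CpGs, below the median of 7 over the 32851 mouse promoters in the table, and 38.0% of those promoters held fewer. The Dll4 window held 17 and the Jag1 window 22. Every other Notch gene with a promoter in the table also held more than Notch4, with 24 and 15 CpGs in the 2 Dll1 windows, 23 in Notch1, 25 in Notch3, 41 in Notch2 and 63 in Jag2, against an upper quartile of 20 over all promoters. In all, 8 of the 10 genes matched, with 9 windows. Hes1 and Hey1 had no entry.

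The letters TGGGAA, the core that Rbpj binds, were searched as written and as their reverse complement and occurred in 0 of the 9 windows, beside 25.6% of all promoters. The letters CACGNG, an E-box form bound by Hes and Hey proteins, searched in the same way, occurred in the windows of Notch2, Notch3, Dll1, Dll4, Jag1 and Jag2 but not in those of Notch1 and Notch4, beside 27.5% of all promoters. These letters themselves hold a CpG, and the windows with them held 15 to 63 CpGs, beside a median of 7 over all promoters. The 27.5% was not matched for CpGs, so no enrichment can be read from it. TATAAA, the core promoter element, occurred in none of the 9, beside 13.6%. None of the 3 motifs contains another. A match is only an occurrence of letters in the window.

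Notch4 had the largest increase of the receptors. It encodes the Notch receptor best known from endothelial cells and lies on chromosome 17 (34564268 to 34588503, plus strand, 30 exons). Its level was 2.50 FPKM in Diff–CONT (480 fragments) and 10.2 FPKM in the library labelled Diff–iKO (1461 fragments). The 2 intervals, 2.28 to 2.73 and 9.67 to 10.7 FPKM, were far apart. The fold change was 4.08, with a log2 ratio of 2.03 (95% counting interval 1.88 to 2.18), and 272 of the 12376 genes had a higher ratio. In cells sampled in bulk, a different number of cells of a type and a different amount of RNA per cell cannot be told apart, here and for every gene below.

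Notch3 was the most abundant of the 10 genes in both libraries. It encodes the receptor known for its role in arterial smooth muscle and pericytes and lies on chromosome 17 (32120820 to 32166852, minus strand, 33 exons). Its level was 69.5 FPKM in Diff–CONT and 57.2 FPKM in Diff–iKO, with a log2 ratio of −0.28 (95% counting interval −0.32 to −0.24). With 16320 and 10036 fragments behind the values the interval was narrow, and the difference was well under 2-fold.

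Notch1 and Notch2, the broadly expressed receptors, were of intermediate level. Notch1 lies on chromosome 2 (26457903 to 26516663, minus strand, 34 exons) and had 17.1 FPKM in Diff–CONT and 23.2 FPKM in Diff–iKO, with a log2 ratio of 0.44 (95% counting interval 0.38 to 0.50). Notch2 lies on chromosome 3 (98013527 to 98150361, plus strand, 34 exons) and had 27.2 FPKM in Diff–CONT and 24.1 FPKM in Diff–iKO, with a log2 ratio of −0.17 (95% counting interval −0.22 to −0.12). Notch2 was above Notch1 in both libraries, by less in Diff–iKO.

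The summed FPKM of the 4 receptors was nearly the same in the 2 libraries, 116.2 in Diff–CONT and 114.7 in Diff–iKO, while its makeup differed. Notch4 made up 2.15% of the sum in Diff–CONT and 8.87% in Diff–iKO. Notch3 made up 59.8% and 49.9%, Notch1 14.7% and 20.2%, and Notch2 23.4% and 21.0%. Notch3 was 27.8 times as abundant as Notch4 in Diff–CONT and 5.62 times in Diff–iKO, so Notch4 was still the least abundant receptor there. These shares lie within a library and do not depend on how the libraries were scaled to each other.

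Dll4 had the log2 ratio farthest from 0 of the 10 genes, with an interval that overlapped the size of the Notch4 ratio, and with a pseudocount of 1 FPKM Notch4 (1.68) was farther from 0 than Dll4 (−1.16). It encodes the Delta-like ligand of arterial and sprouting endothelial cells and lies on chromosome 2 (119325784 to 119335962, plus strand, 11 exons). Its level was 2.11 FPKM in Diff–CONT (225 fragments) and 0.396 FPKM in the library labelled Diff–iKO (32 fragments), with intervals of 1.84 to 2.40 and 0.274 to 0.566 FPKM. It had the lowest FPKM of the 10 genes in both libraries, in Diff–CONT with an interval that overlapped that of Notch4. The fold change was 5.33 in favour of Diff–CONT, with a log2 ratio of −2.41 (95% counting interval −2.97 to −1.85), and 147 of the 12376 genes had a lower ratio. Because the Diff–CONT level was only just above the FPKM minimum of 2, the call rested on that minimum. The start of Dll4 overlaps Gm14207, a transcript of the opposite strand, by 411 bases. Gm14207 had 0.210 FPKM in Diff–CONT and was listed at 0 in Diff–iKO.

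Jag1 and Jag2, the Jagged ligands, were both higher in the library labelled Diff–iKO by about the same factor, but only Jag1 reached the cut-off. Jag1, a ligand needed for the smooth muscle of vessels, lies on chromosome 2 (137081456 to 137116644, minus strand, 26 exons). It had 12.0 FPKM in Diff–CONT (1955 fragments) and 24.1 FPKM in Diff–iKO (2926 fragments), a fold change of 2.00 and a log2 ratio of 1.00 (95% counting interval 0.92 to 1.09). Jag2 lies on chromosome 12 (112907819 to 112929776, minus strand, 26 exons) and had 10.6 FPKM in Diff–CONT (1568 fragments) and 19.8 FPKM in Diff–iKO (2179 fragments), a fold change of 1.86 and a log2 ratio of 0.90 (95% counting interval 0.80 to 0.99). The intervals of the Jag1 and Jag2 ratios overlapped, and the interval of Jag1 reached below 2-fold.

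Dll1 was the one Notch gene whose interval included 0. It encodes a Delta-like ligand used in somite formation and neurogenesis and lies on chromosome 17 (15367354 to 15376872, minus strand, 11 exons). It had 4.62 FPKM in Diff–CONT (471 fragments) and 4.94 FPKM in Diff–iKO (376 fragments), with a log2 ratio of 0.10 (95% counting interval −0.10 to 0.29). A difference was not detectable at this depth.

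The 4 ligands summed to 29.4 FPKM in Diff–CONT and 49.2 FPKM in Diff–iKO. Jag1 and Jag2 together had 22.6 FPKM in Diff–CONT and 43.8 FPKM in Diff–iKO, whereas Dll1 and Dll4 together had 6.73 and 5.34 FPKM. The Jagged to Delta-like ratio was therefore 3.36 in Diff–CONT and 8.22 in Diff–iKO. By gene, Jag1 made up 40.9% and 48.9% of the ligand sum, Jag2 36.2% and 40.2%, Dll1 15.7% and 10.05%, and Dll4 7.19% and 0.806%. The widest gap between a pair of ligands was that of Jag1 over Dll4, 5.69 in Diff–CONT and 60.7 in Diff–iKO.

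**Figure D2:**
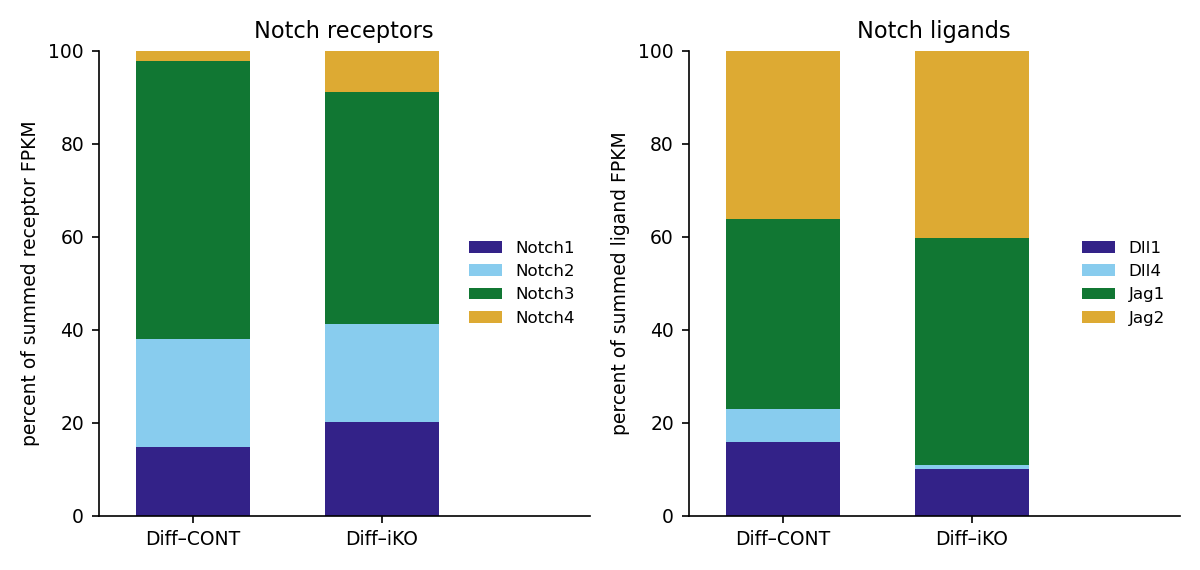
Share of each receptor in the summed FPKM of the 4 receptors and of each ligand in the summed FPKM of the 4 ligands, in percent, for the 1 library of each group. The Notch4 share is 2.15% in Diff–CONT and 8.87% in Diff–iKO, and the Dll4 share is 7.19% and 0.806%.

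Both targets had the lower level in Diff–iKO, by less than 2-fold. Hes1, the repressor that answers Notch in most tissues but also other signals, lies on chromosome 16 (30064384 to 30067796, plus strand, 4 exons). It had 34.9 FPKM in Diff–CONT (1338 fragments) and 24.0 FPKM in Diff–iKO (688 fragments), with a log2 ratio of −0.54 (95% counting interval −0.67 to −0.40). Hey1, a repressor of arterial endothelium and of the atrioventricular canal of the heart, lies on chromosome 3 (8663359 to 8667256, minus strand, 5 exons). It had 8.30 FPKM in Diff–CONT (556 fragments) and 4.95 FPKM in Diff–iKO (248 fragments), a 1.68-fold difference and a log2 ratio of −0.75 (95% counting interval −0.97 to −0.53). The intervals of the 2 ratios overlapped, and Hes1 was 4.20 times as abundant as Hey1 in Diff–CONT and 4.85 times in Diff–iKO.

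The order of the 10 genes by level differed between the libraries. In Diff–CONT it ran Notch3, Hes1, Notch2, Notch1, Jag1, Jag2, Hey1, Dll1, Notch4 and Dll4, and only the last 2, Notch4 and Dll4, had overlapping intervals. In Diff–iKO it ran Notch3, Notch2, Jag1, Hes1, Notch1, Jag2, Notch4, Hey1, Dll1 and Dll4. There the intervals of Notch2, Jag1, Hes1 and Notch1 overlapped from each gene to the next, all between 23.2 and 24.1 FPKM, and so did those of Hey1 and Dll1. Notch4 and Dll4, side by side at the bottom in Diff–CONT, were thus 3 places apart in Diff–iKO.

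The rest of the pathway was read from 51 further genes grouped by role, of which 43 reached an FPKM of 2. Kat2b was higher (2.33% of the 43, beside 6.73% of all genes tested), and Dlk1, Maml3, Snw1, Hey2 and Nrarp were lower (11.6%, beside 8.39%). Without the cut-off, 21 of the 51 had the higher value in Diff–iKO and 30 in Diff–CONT. The median log2 ratio was −0.17 over the 45 of them that averaged 1 FPKM or more, beside −0.01 over all genes.

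Among the other ligands, Dlk1, an imprinted Delta-like protein of mesenchyme that lacks the domain used to activate Notch, fell from 139 FPKM in Diff–CONT to 33.3 FPKM in Diff–iKO, with a log2 ratio of −2.06 (95% counting interval −2.18 to −1.94). The neuronal ligand Dner had 6.34 and 4.25 FPKM and Dll3, a Delta-like protein of the presomitic mesoderm, had 4.11 and 2.66 FPKM. All 4 genes of this group, Dlk2 included, had the lower value in Diff–iKO, and 1 passed the cut-off.

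None of the 6 genes of receptor maturation passed the cut-off. Furin, the protease that cuts the newly made receptor, had 61.1 FPKM in Diff–CONT and 64.0 FPKM in Diff–iKO. Poglut1, which adds glucose to the receptor's EGF repeats, had 33.6 and 60.2 FPKM, a log2 ratio of 0.84. Pofut1, which adds fucose to them, had 14.3 and 12.9 FPKM. The group's median log2 ratio was −0.04.

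Of the ubiquitin ligases that let a ligand pull on its receptor, the 3 that reached an FPKM of 2 were close to level. Mib1 had 18.2 FPKM in Diff–CONT and 19.4 FPKM in Diff–iKO, Neurl1a had 4.06 and 4.15 FPKM, and the log2 ratio of Mib2 was 0.15. The fourth, Neurl1b, stayed below the minimum with 0.655 FPKM (118 fragments) and 0.312 FPKM (42 fragments), with a log2 ratio of −1.07 (95% counting interval −1.61 to −0.55).

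Of the 9 cleavage genes none passed the cut-off, and the median log2 ratio was 0.09. Ncstn, a γ-secretase subunit, was the most different, with 88.3 FPKM in Diff–CONT and 48.9 FPKM in Diff–iKO, a log2 ratio of −0.85. Adam10, the protease of the first cut, had 58.5 and 71.4 FPKM. Psenen, another γ-secretase subunit, had 47.4 and 46.1 FPKM.

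Receptor trafficking and turnover also had no call among 8 genes. Dtx3, of the Deltex ubiquitin ligase family, had 104 FPKM in Diff–CONT and 56.6 FPKM in Diff–iKO, a log2 ratio of −0.88. Numbl had 23.9 and 24.0 FPKM and Itch, a ubiquitin ligase, had 22.7 and 18.2 FPKM. Numb and Numbl proteins restrain Notch in one daughter of a dividing cell.

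The nuclear complex held 3 of the 6 calls. Maml3, a Mastermind coactivator, fell from 9.77 FPKM in Diff–CONT to 2.13 FPKM in Diff–iKO, with a log2 ratio of −2.20 (95% counting interval −2.36 to −2.04). Snw1, a cofactor that also belongs to the spliceosome, fell from 45.8 to 20.9 FPKM, with a log2 ratio of −1.13 (95% counting interval −1.24 to −1.03). Kat2b, a histone acetyltransferase, rose from 6.07 to 13.9 FPKM, with a log2 ratio of 1.19 (95% counting interval 1.07 to 1.32). Rbpj, the DNA-binding protein at the centre of the complex, had 21.2 and 29.95 FPKM, a log2 ratio of 0.50. The other Mastermind genes were not past the cut-off, with 13.2 and 8.82 FPKM for Maml1 and 4.95 and 3.06 FPKM for Maml2, so all 3 had the lower value in Diff–iKO while Rbpj had the higher one.

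Of the 8 further targets, 7 had the lower value in Diff–iKO, but only 5 of the 8 reached an FPKM of 2. Past the cut-off as lower were 2 of these 5 (40%, beside 8.39% of all genes tested), too few to set the targets apart. Hey2, a repressor of arterial endothelium and ventricular muscle, fell from 3.49 FPKM (247 fragments) to 0.855 FPKM (45 fragments), with a log2 ratio of −2.03 (95% counting interval −2.53 to −1.57). Nrarp, a direct target that feeds back on the receptor, fell from 4.66 to 2.30 FPKM, with a log2 ratio of −1.02 (95% counting interval −1.33 to −0.72), a call that was lost with a pseudocount of 0.1 (−0.99). Hes5, the main Hes gene of neural progenitors, had 0.828 FPKM in Diff–CONT (27 fragments) and was listed at 0 in Diff–iKO, 6.70-fold lower when the latter was set to a floor of 3 fragments. The 95% counting interval of its log2 ratio reached up to −2.35. Efnb2, the arterial ephrin ligand, had 35.1 and 20.6 FPKM, Ccnd1 28.2 and 22.8 FPKM, and Myc 13.1 and 13.8 FPKM. Among the remaining Hes genes, which were not taken as targets, Hes6 had 20.2 and 16.9 FPKM and Hes2 and Hes3 were below 0.2 FPKM in both libraries.

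**Figure D3:**
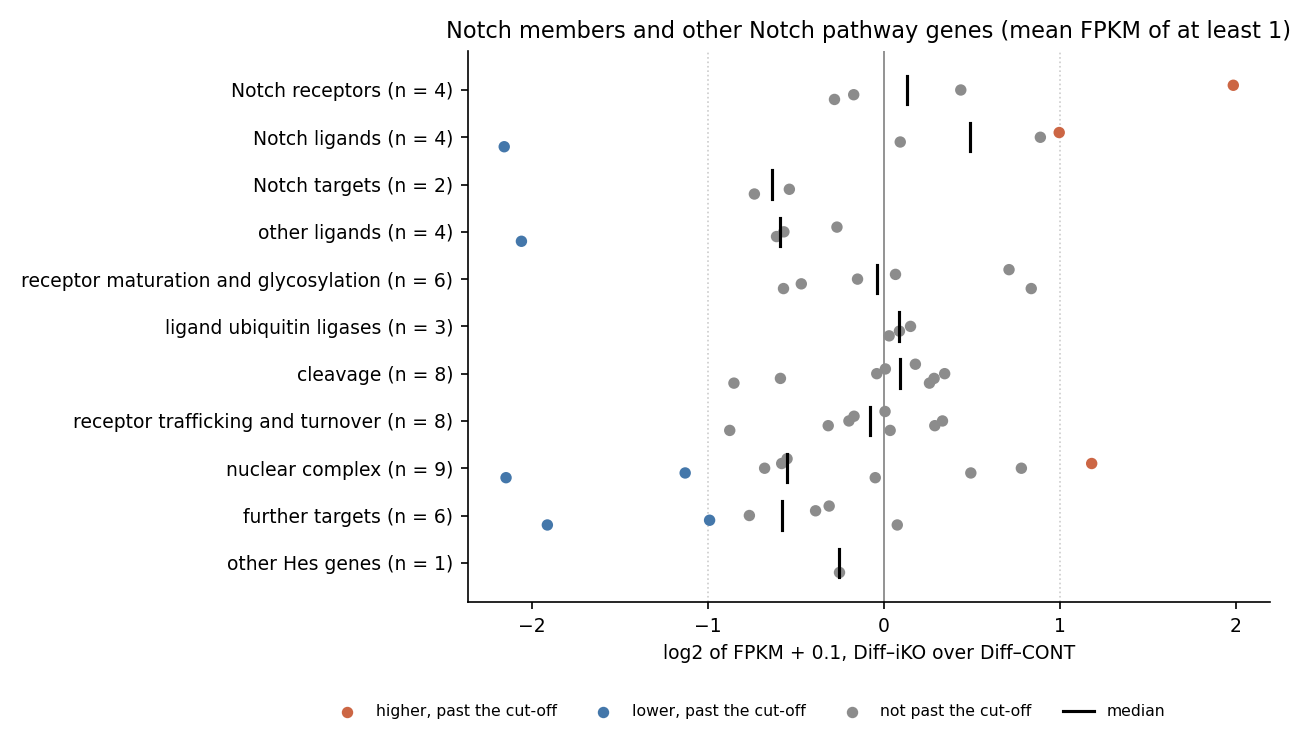
Log2 ratio of Diff–iKO over Diff–CONT with a pseudocount of 0.1 FPKM, for the 10 Notch genes (upper 3 lines) and the 45 further pathway genes that averaged 1 FPKM or more, by role, 1 point a gene, with a black bar at the median and colour for genes past the cut-off. Among the further genes Kat2b at 1.18 is the coloured point on the higher side, and Maml3, Dlk1, Hey2, Snw1 and Nrarp are those on the lower side.

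Cells that use Notch were followed by 11 marker lists with 80 genes, since the cell types present could differ between the libraries. Of these genes, 57 reached the FPKM minimum, 13 passed the cut-off as higher in Diff–iKO and 28 as lower, beside the 6.73% and 8.39% of all genes tested. The undifferentiated ES cell list was higher in all 6 genes, summed to 398 FPKM in Diff–CONT and 2759 FPKM in Diff–iKO, and was led by Dppa5a (258 and 2115 FPKM), with Tdgf1 at 49.8 and 259 FPKM and the pluripotency factors Pou5f1 at 60.8 and 247 FPKM, Nanog at 19.5 and 81.2 FPKM, Esrrb at 7.10 and 42.05 FPKM and Zfp42 at 3.20 and 14.4 FPKM. Thus the label of differentiating ESCs went with ES cell markers at higher levels in Diff–iKO. The visceral endoderm list was lower in 6 of 6 genes (summed 162 and 6.95 FPKM), among them the secreted proteins Ttr (66.7 and 2.28 FPKM), Afp (45.9 and 0.422 FPKM) and Apoa1 (34.8 and 0.444 FPKM). The embryonic globins were lower as well, with Hbb-y at 35.04 and 0.102 FPKM, while Hbb-bh1 (88.2 FPKM in Diff–CONT) and Hba-x (54.9 FPKM) were listed at 0 in Diff–iKO.

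Most endothelial markers differed in the direction of Dll4, opposite to that of Notch4. Of the 11 genes of the list, 7 passed the cut-off as lower, among them Cdh5 (10.3 and 4.34 FPKM), Kdr (12.2 and 4.37 FPKM), Tie1 (4.36 and 0.906 FPKM) and Sox17 (5.36 and 0.317 FPKM), and the list's median log2 ratio was −1.42. Pecam1, which ES cells also make, was the exception and rose from 16.2 to 53.9 FPKM. Because of it the list summed to 84.8 FPKM in Diff–CONT and 80.8 FPKM in Diff–iKO. None of these genes was at 0 in either library. The part of the endothelial genes in the Dll4 and Notch4 values was not tested.

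The arterial list, which shares Efnb2 and Hey2 with the further targets, had the lower value in Diff–iKO in 6 of 6 genes, with Hey2 past the cut-off, a median log2 ratio of −0.87 and a sum of 92.3 and 49.96 FPKM. It had the same direction as Dll4, Hes1 and Hey1. The sum of the arterial list was mostly Nrp1, its most abundant gene (49.2 and 26.1 FPKM), and Efnb2 (35.1 and 20.6 FPKM), and its median rested on 4 genes.

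Mural and smooth muscle genes, beside Notch3 and Jag1, went both ways. The list summed to 568 FPKM in Diff–CONT and 841 FPKM in Diff–iKO, with Cnn1 (8.71 and 19.0 FPKM) and Cspg4 (3.66 and 7.46 FPKM) past the cut-off as higher and the pericyte gene Rgs5 (13.8 and 1.35 FPKM) as lower. The most abundant by the mean of both libraries was the actin-binding protein gene Tagln (230 and 445 FPKM), under 2-fold, although Acta2 was above it in Diff–CONT (263 and 337 FPKM). The cardiomyocyte list, beside Hey1 and Hey2, was lower in the 3 of its 9 genes that reached 2 FPKM (Tnnt2, Myh7 and Myl7), with Tnnt2 at 14.7 and 4.17 FPKM and a list sum of 38.6 and 9.97 FPKM. Mesenchyme genes, beside Dlk1, were lower in 4 of 6, with a sum of 1351 and 1410 FPKM that was mostly Col1a1 (880 and 1199 FPKM). Those lower were Col3a1 (386 and 187 FPKM), Lum (46.3 and 8.00 FPKM), Pdgfra (19.1 and 4.65 FPKM) and Prrx1 (8.66 and 4.30 FPKM).

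The neural list, beside Dll1 and Hes5, had a median log2 ratio of −0.10 and a sum of 145 and 156 FPKM, mostly of Fabp7 (98.1 and 100.3 FPKM). In the trophoblast list 3 of 6 genes passed the cut-off as higher and Cdx2 (4.00 and 0.705 FPKM) as lower. Without the cut-off 4 were higher and 2 lower. The list summed to 7.02 FPKM in Diff–CONT and 15.1 FPKM in Diff–iKO, with Tpbpa, its most abundant gene by the mean, at 1.07 and 5.63 FPKM. The part of these cell types in the values of the Notch genes was not tested.

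**Figure D4:**
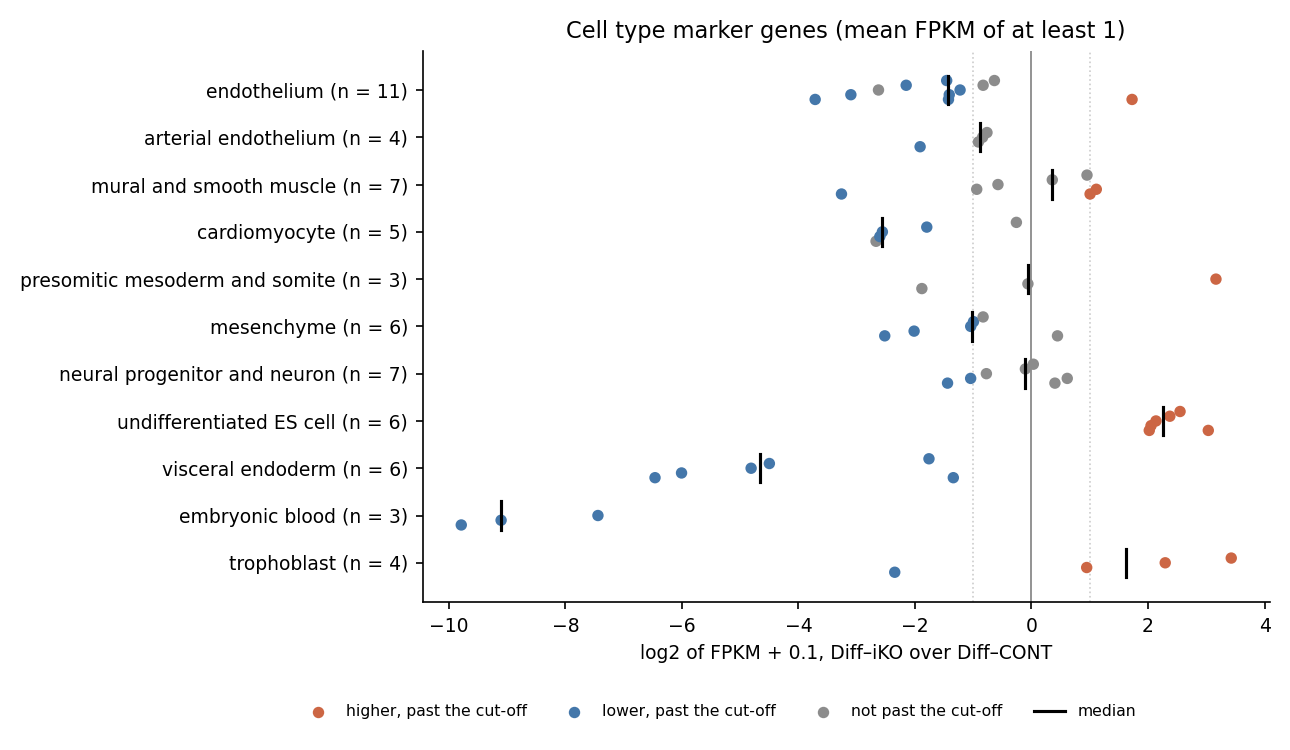
Log2 ratio of Diff–iKO over Diff–CONT with a pseudocount of 0.1 FPKM, for marker genes that averaged 1 FPKM or more, by cell type, 1 point a gene, with a black bar at the median and colour for genes past the cut-off. The 6 undifferentiated ES cell genes all lie above 2, the 6 visceral endoderm genes all lie below −1, and the endothelial genes other than Pecam1 lie below 0.

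Dll4 is also a close neighbour of Ino80 on chromosome 2. It ends 37.1 kb from the Ino80 gene, and this comparison was chosen after the values were seen. Of 17 other genes listed within 200 kb of Ino80, 12 reached an FPKM of 2, and Dll4 and Oip5 (10.52 and 4.65 FPKM, log2 ratio −1.18) were the 2 lower ones, with none higher, beside 8.39% lower and 6.73% higher among all genes tested, so the count of 2 does not set these genes apart. Chac1, which lies between Dll4 and Ino80, had 3.47 FPKM in Diff–CONT and 4.28 FPKM in Diff–iKO, with a log2 ratio of 0.30 (95% counting interval −0.04 to 0.64). On the far side of Dll4, the log2 ratios were 0.39 for Vps18, 0.34 for Spint1, −0.17 for Zfyve19 and −0.55 for Dnajc17. The median log2 ratio of the 12 was −0.17.

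**Figure D5:**
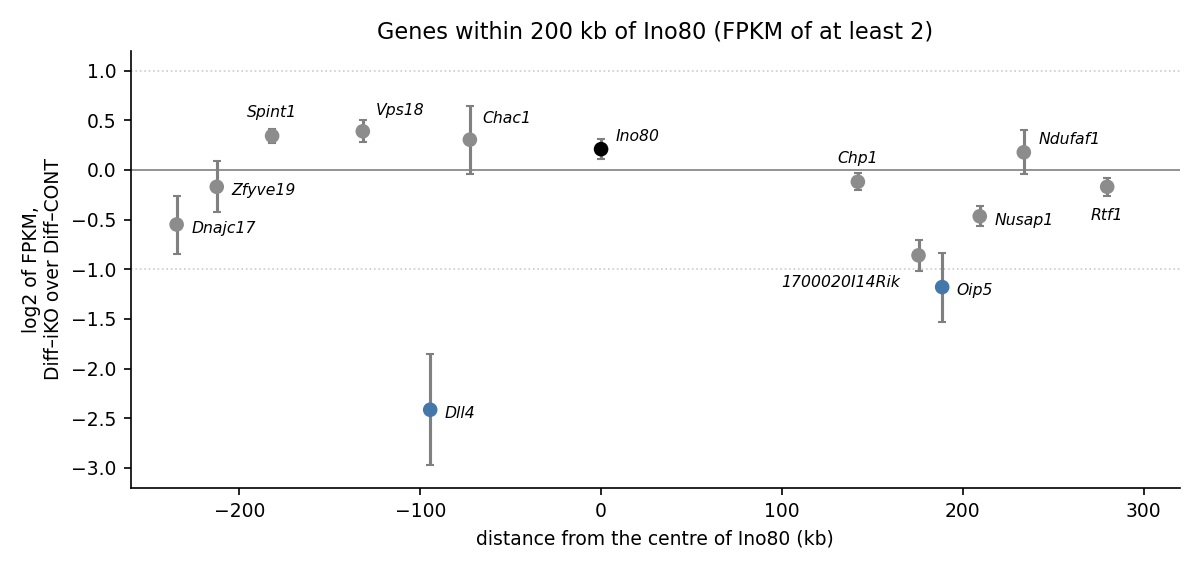
Log2 ratio of Diff–iKO over Diff–CONT for genes within 200 kb of Ino80 that reached an FPKM of 2, by the distance in kb of the gene's centre from that of Ino80, with 95% counting intervals. Dll4 at −2.41 is the lowest point, and the others lie between −1.18 for Oip5 and 0.39 for Vps18.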

How the data were processed

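RNA was taken from differentiating ESCs in 1 Diff–CONT and 1 Diff–iKO library, prepared with a stranded mRNA kit from 1 µg of RNA each. The authors deposited FPKM values for 24354 genes. Per the labels these came from STAR 2.7.9a and Cuffnorm of Cufflinks 2.2.1 on mm10. Annotation, read numbers and use of strand in counting were not given in the sources used here. The 2 value columns were assigned by their names, and 0 others were present.

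Fold changes were ratios of FPKM, and medians over genes used log2 values with a pseudocount of 0.1 over genes that averaged 1 FPKM or more. Fragments were recovered from the steps of low FPKM values of single-transcript genes of at least 1000 nt. Low values lay within 0.1 of a whole fragment in 76.4% of 1547 cases for Diff–CONT and in 75.3% of 1736 for Diff–iKO, beside 20% by chance, so the fragment numbers and intervals are approximate. No count model was run. Gene positions came from GENCODE vM21 (GRCm38), where 23315 symbols matched and 1039 did not. Transcript lengths came from the GENCODE transcripts paired with RefSeq, of which all 10 Notch genes had 1. The scripts were tested on simulated data and ran in Python 3.11.15 (intervals from scipy 1.17.1, tables from pandas 2.3.3, plots from matplotlib 3.10.9).

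The Notch genes and all lists were chosen with earlier results of these data known, so no count over them is independent evidence. The text names the 10 Notch genes, Ino80, each pathway gene past the cut-off, the 3 most abundant of each role, the most abundant marker of a list and markers past the cut-off at 10 FPKM or more. Others (Neurl1b, Maml1, Maml2, Rbpj's comparison with them, Hes5, Hes7, weaker markers and the Ino80 neighbours) were chosen after their values were seen. Alternatives were other fold and FPKM cut-offs, pseudocounts, scalings and shares by fragments. Values of some genes of the lists are not reported here.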

Additional observations from a re-analysis of the deposited data

How the results depend on the processing

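All 60 recomputed log2 ratios of the 10 Notch genes kept their sign, and 54 of them stayed within the counting interval. Only the scalings could have changed a sign, since a pseudocount cannot and no symbol had more than 1 row to sum. The count of 2 higher genes became 1, without Jag1, with a pseudocount of 0.1 or 1, with the libraries scaled to the same sum or by the median of ratios, and with a fold of 4, and 3 with a fold of 1.5. The 1 lower gene, Dll4, became 0 when 2 FPKM was required in both libraries or 10 FPKM in 1, and 2 with a fold of 1.5. Scaled to the same sum, the log2 ratio was 0.35 for Notch1, −0.27 for Notch2, −0.37 for Notch3 and 0.91 for Jag1, and with a pseudocount of 1 it was 1.68 for Notch4 and −1.16 for Dll4. The median of the 10 was −0.13 with the same sum, −0.045 by the median of ratios and −0.031 by the upper quartile, and these scalings moved all genes by −0.09, −0.01 and 0.01. Of the 51 pathway genes, 4 were higher and 12 lower with a fold of 1.5, 0 and 3 with a fold of 4, 2 and 8 with no FPKM minimum, and 2 were lower at 10 FPKM. By fragments instead of FPKM, which weights long transcripts, the shares in Diff–CONT and Diff–iKO were 15.9% and 22.1% for Notch1, 28.0% and 25.4% for Notch2, 54.4% and 45.8% for Notch3, 1.60% and 6.67% for Notch4, 11.2% and 6.82% for Dll1, and 46.3% and 53.1% for Jag1, with 5.33% for Dll4 in Diff–CONT. The calls of the marker genes stayed within 1.5 times under all 12 alternatives, and none of the 66 recomputed marker medians changed sign. Summed rows could only repeat the main value in both, as could the pseudocount of 0.1 for the medians.

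No paired analysis was possible because each group had 1 library, and for that reason no library was left out. Culture, line and sequencing differences cannot be told apart from the genotype. Dll4 rested on 225 and 32 fragments, so its size is the least precise of the 10. The kit kept strand, but whether the counting used it was not stated, and transcripts of the opposite strand overlap Notch1, Notch3, Notch4, Dll1 and Dll4.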

Other observations

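Genes of the somite clock, which in the presomitic mesoderm depends on Notch, did not all differ in the same direction, and all of those below but Lfng were under 2 FPKM in both libraries. They were chosen after their values were seen. Hes7, the oscillating repressor of the clock, had 0.171 FPKM in Diff–CONT (8 fragments) and was listed at 0 in Diff–iKO, at least 2.07-fold lower at a floor of 3 fragments. Lfng, the glycosyltransferase that modifies Notch in the clock, had 9.45 FPKM in Diff–CONT and 6.33 FPKM in Diff–iKO, a log2 ratio of −0.58. Tbx6, the presomitic factor, had 1.22 and 1.17 FPKM, and Mesp2, which marks the next boundary, had 0.133 FPKM (7 fragments) and 0.484 FPKM (19 fragments). Msgn1 and Ripply2 had 1 fragment each in Diff–CONT and were listed at 0 in Diff–iKO.

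Tcf15, a factor of the somite epithelium that ES cells also use, rose from 1.39 FPKM (33 fragments) to 13.2 FPKM (235 fragments) and was the only gene of the 8 on the presomitic list to reach 2 FPKM. The list summed to 5.84 FPKM in Diff–CONT and 15.5 FPKM in Diff–iKO, of which Tcf15 was the larger part only in Diff–iKO, and the list's median log2 ratio was −0.06 over 3 genes.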
